A study of Mus musculus with 9 samples.

Results

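S100 proteins are a family of small calcium-binding proteins with paired EF-hand motifs, and 10 of their genes that are known from skin were followed in ear tissue of C57 mice. The genes were S100a3, S100a4, S100a6, S100a7a, S100a8, S100a9, S100a10, S100a11, S100a14 and S100a16. They were chosen by symbol, as rows of the gene count matrix, and all 10 were found among 55401 rows and passed the filter on low counts. Ears were compared in 3 groups of 3 libraries. Control ears received absolute ethyl alcohol. Ears of the second group received MC903 (calcipotriol), a synthetic form of vitamin D that is painted on mouse skin to model atopic dermatitis. In the third group MC903 was combined with paeonol, a small phenol known from peony, at 200 mg/kg. No group with paeonol alone was analysed here, so paeonol was measured only on top of MC903. The labels give neither ages nor doses of MC903, their genotype entry names no allele, and nothing in them assigns each library to its own animal. The p-values therefore cover only the spread among these libraries, which may be technical.

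Inside cells, S100 dimers change shape when calcium binds and then attach to target proteins such as annexins. Outside cells, S100a8 and S100a9 form calprotectin, which withholds zinc and manganese from microbes and acts on the receptors Tlr4 and Ager (RAGE). Most S100 genes lie side by side in the epidermal differentiation complex, beside genes of the cornified envelope, and several are made by keratinocytes, others mainly by myeloid cells or mesenchymal cells. S100a8 and S100a9 are well known as genes raised in inflamed human epidermis.

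In GRCm38, the build of the submitters' processing notes, 8 of the 10 genes lay on chromosome 3 between 90511034 and 90695721, the outer ends of S100a1 and S100a9. This stretch of 185 kb held 16 annotated genes in GENCODE M21, of which 12 were S100 genes and 4 were not, and 0 of these 4 passed the filter. S100a11 (93520488 to 93526287) and S100a10 (93555080 to 93564643) lay 2825 kb further along the same chromosome. All members but S100a9 are on the plus strand.

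The sequences before the transcription start are shown for 5 members that behaved differently in the libraries. S100a6 and S100a11 were higher with MC903 than in control, and in between with MC903 and paeonol. S100a4 was lower with MC903, and the neighbours S100a8 and S100a9 varied within groups. Each is the 250 bases before the RefSeq start (GRCm38.p6), 5′ to 3′ on the gene's own strand, and capitals mark matches to the motifs described after them. The intervals are chr3:90612644-90612893 for S100a6, chr3:93520246-93520495 for S100a11, chr3:90603520-90603769 for S100a4, chr3:90668821-90669070 for S100a8, all on the plus strand, and chr3:90695722-90695971 on the minus strand for S100a9.
S100a6: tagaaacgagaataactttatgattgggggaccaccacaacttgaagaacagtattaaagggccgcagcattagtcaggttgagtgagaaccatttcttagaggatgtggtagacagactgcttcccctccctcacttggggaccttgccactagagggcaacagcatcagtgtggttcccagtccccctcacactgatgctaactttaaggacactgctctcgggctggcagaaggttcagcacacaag
S100a11: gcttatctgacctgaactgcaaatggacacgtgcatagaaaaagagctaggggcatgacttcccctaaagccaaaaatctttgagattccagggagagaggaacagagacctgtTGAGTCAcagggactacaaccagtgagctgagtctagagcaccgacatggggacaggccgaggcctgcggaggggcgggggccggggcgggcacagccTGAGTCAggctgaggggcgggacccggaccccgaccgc
S100a4: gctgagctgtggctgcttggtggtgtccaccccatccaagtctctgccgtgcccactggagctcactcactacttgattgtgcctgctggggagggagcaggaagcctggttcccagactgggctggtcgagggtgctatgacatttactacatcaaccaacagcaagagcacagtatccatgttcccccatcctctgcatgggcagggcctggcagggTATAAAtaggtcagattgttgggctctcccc
S100a8: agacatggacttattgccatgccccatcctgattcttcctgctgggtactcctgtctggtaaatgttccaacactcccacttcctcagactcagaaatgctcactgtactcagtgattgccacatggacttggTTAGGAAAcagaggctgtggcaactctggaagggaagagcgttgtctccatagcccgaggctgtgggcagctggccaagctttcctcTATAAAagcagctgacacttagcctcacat
S100a9: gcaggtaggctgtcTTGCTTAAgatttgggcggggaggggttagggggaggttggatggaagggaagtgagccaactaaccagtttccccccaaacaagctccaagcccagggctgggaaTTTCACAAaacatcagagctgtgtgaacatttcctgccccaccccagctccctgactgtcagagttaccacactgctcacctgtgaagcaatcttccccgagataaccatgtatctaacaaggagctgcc

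RefSeq promoters were found for 8 of the 10 members. The motifs searched were AP-1 (TGANTCA), C/EBP (TTNNGNAA), NF-kB (GGGNNTTNCC) and the vitamin D receptor (NGNTCANNNNGNTCA) on both strands, and the TATA box (TATAAA) on the gene's strand. S100a11 held the AP-1 letters TGAGTCA at 2 places, starting 136 and 38 bases before the start. S100a8 held a C/EBP match starting 117 bases and a TATA box starting 30 bases before the start, and S100a9 held C/EBP matches at 236 and 130 bases. S100a4 held a TATA box at 31 bases, and none of the motifs was in the windows of S100a6 and S100a7a. S100a16, with several RefSeq starts, held an AP-1 match (TGAATCA) starting 192 bases before one start and an NF-kB match 249 bases before another. Of the starts of S100a3, some held C/EBP matches (116 and 198 bases) and one a TATA box (52 bases). Among 32851 RefSeq promoters of the same length, 6.75% held the AP-1 letters, 36.8% the C/EBP letters, 4.11% the NF-kB letters, 0.545% the vitamin D receptor letters and 7.59% the TATA box. The motifs were chosen after the counts had been seen, and a match is a description of the letters only.

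Each library held between 54.26 and 57.75 M estimated counts, and levels are given as CPM, the count of a gene per 1 M counts of its library, with library sizes scaled by edgeR's TMM method. A change was called where edgeR's quasi-likelihood test gave an adjusted p under 0.05 (Benjamini-Hochberg, over the 21925 genes tested). Control library 2 stood above the other controls for S100a3, S100a8 and S100a9, and results of these genes that it moves are given with and without it. In the comparisons between groups that follow, adjusted p-values come from that test, log2 changes are fitted values, ± gives their standard error, and every group has n = 3. Words such as rose, fell, then and on adding paeonol compare groups of separate libraries and describe no course in time.

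Summed over the 10 genes, the level was 1885 to 2186 CPM in control, 3391 to 3722 CPM in MC903 and 2628 to 2704 CPM in MC903 with paeonol libraries. The 3 groups did not overlap in this sum. In MC903 versus control, 7 of the 10 genes were called, 6 higher (S100a6, S100a7a, S100a10, S100a11, S100a14 and S100a16) and 1 lower (S100a4). Over all genes tested, 46.8% were called in that comparison, 23.0% higher and 23.8% lower, so that calls were common throughout the ear. In MC903 with paeonol versus MC903, 5 members were called lower and 0 higher. There the background was 29.7% called, 15.3% higher and 14.3% lower. In MC903 with paeonol versus control, 4 members were called higher and 1 lower, beside 30.9% of all genes called, 16.3% higher and 14.5% lower. The members' median log2 changes were 0.83, -0.28 and 0.41 in these comparisons, and those of all genes -0.0155, 0.0024 and -0.0347. The comparisons share libraries, so they are not independent of each other.

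**Figure D1:**
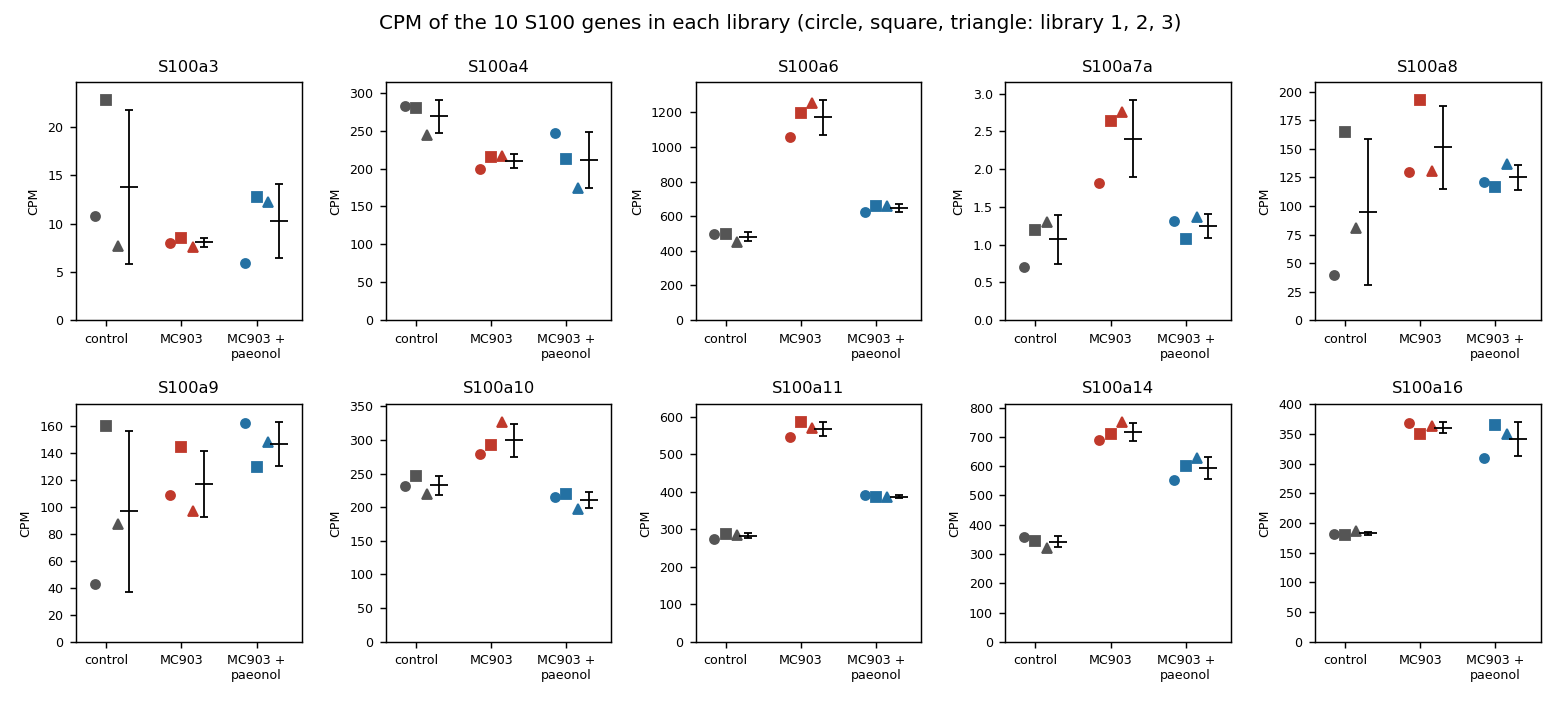
Level of each of the 10 S100 genes in CPM (vertical axes, starting at 0) in the 3 libraries of each group, with the mean and SD to the right of the points. S100a6, S100a11 and S100a14 form separate groups in the order control, MC903 with paeonol, MC903, while S100a8 and S100a9 spread widely among the controls.

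S100a6 (calcyclin), which binds annexins and the calcyclin-binding protein, rose in all MC903 libraries. Its level was 497, 496 and 453 CPM in control libraries 1 to 3, 1058, 1195 and 1256 CPM with MC903, and 622, 659 and 660 CPM with MC903 and paeonol. All MC903 libraries lay above all others, and all paeonol libraries lay between them and the controls. The log2 change was 1.28 ± 0.07 (SE) in MC903 versus control (adjusted p = 4.23e-07). It was -0.85 ± 0.07 in MC903 with paeonol versus MC903 (adjusted p = 1.45e-05) and 0.42 ± 0.07 in MC903 with paeonol versus control (adjusted p = 0.00118). Measured in CPM, the paeonol libraries held on average 24.0% of the MC903 increase, from 20.4% to 25.8% in single libraries. This share, here and for the genes below, takes the control and MC903 means as fixed. Its range therefore shows the spread of the paeonol libraries only.

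S100a11 (calgizzarin), a keratinocyte protein that binds annexin A1 and becomes part of the cornified envelope, had the same order of groups with little spread. Its level was 275, 288 and 285 CPM in control, 547, 586 and 569 CPM with MC903 and 391, 385 and 386 CPM with MC903 and paeonol. The 3 groups did not overlap. The log2 change was 1.01 ± 0.05 with MC903 (adjusted p = 3.04e-07) and -0.55 ± 0.05 on adding paeonol (adjusted p = 2.94e-05). The paeonol libraries remained above control by 0.46 ± 0.05 on the log2 scale (adjusted p = 0.000128) and held 36.9% of the increase, from 36% to 38.1%. The promoter with the AP-1 letters at 2 places, printed above, is that of this gene.

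S100a14 and S100a16 are epithelial members of the family that lie next to each other, at 90526856 to 90528837 and 90537254 to 90543151. S100a14 was at 359, 344 and 322 CPM in control, 691, 711 and 752 CPM with MC903 and 553, 602 and 627 CPM with MC903 and paeonol. It rose by 1.07 ± 0.07 (log2) with MC903 (adjusted p = 6.35e-07), and the paeonol libraries were lower than MC903 by a log2 change of -0.27 ± 0.07 (adjusted p = 0.00946). They stayed above control by 0.80 ± 0.07 (adjusted p = 2.67e-05), holding 67.0% of the increase (56.1% to 75.7%).

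S100a16 was at 182, 180 and 186 CPM in control, 369, 350 and 364 CPM with MC903 and 310, 366 and 350 CPM with MC903 and paeonol. It rose by 0.98 ± 0.07 on the log2 scale with MC903 (adjusted p = 9.07e-07). The paeonol and MC903 libraries overlapped, and their log2 difference of -0.08 ± 0.07 did not pass the test (adjusted p = 0.422), with a 95% interval from -0.22 to 0.07. Against control the paeonol libraries were higher by 0.90 ± 0.07 (adjusted p = 1.47e-05), and they held 89.2% of the increase (71.3% to 103%). Among these 4 strongly raised genes the share held with paeonol thus ran from 24.0% for S100a6 through S100a11 and S100a14 to 89.2% for S100a16. The differences between genes in this share were not tested.

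S100a10 (p11), the partner of annexin A2 in a membrane-bound tetramer, changed less. It was at 231, 247 and 219 CPM in control, 279, 292 and 327 CPM with MC903 and 215, 220 and 198 CPM with MC903 and paeonol. MC903 libraries lay above all others, while the paeonol and control ranges overlapped. The log2 change was 0.37 ± 0.08 with MC903 (adjusted p = 0.00189), -0.50 ± 0.08 on adding paeonol (adjusted p = 0.000476) and -0.14 ± 0.08 in MC903 with paeonol versus control (adjusted p = 0.193). Scaled by library totals alone, the first call ended (0.175 on the log2 scale, adjusted p = 0.0967) and the last was made (-0.301, adjusted p = 0.0142). Its partner Anxa2, named after its values were seen, changed by -0.12 (adjusted p = 0.13) and 0.27 (adjusted p = 0.00601) in the MC903 and paeonol comparisons, so only its higher level on adding paeonol was called.

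S100a7a (koebnerisin), the mouse relative of human psoriasin, was low in all libraries. Its level was 0.704, 1.20 and 1.3 CPM in control, 1.82, 2.64 and 2.76 CPM with MC903 and 1.31, 1.07 and 1.36 CPM with MC903 and paeonol, from 44 to 152 estimated counts per library. It rose by 1.17 ± 0.31 (log2) with MC903 (adjusted p = 0.00784), and the paeonol libraries were lower than MC903 with -0.95 ± 0.30 (adjusted p = 0.0351) and differed from control by 0.22 ± 0.31 (adjusted p = 0.639). The call for paeonol against MC903 ended when MC903 library 2 or 3, or paeonol library 1, 2 or 3, was left out (adjusted p = 0.0985, 0.113, 0.0764, 0.111 and 0.0576).

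S100a4 (metastasin), a gene of fibroblasts and leukocytes that binds non-muscle myosin, was the single member called lower with MC903. It was at 283, 280 and 244 CPM in control, 199, 215 and 216 CPM with MC903 and 247, 213 and 174 CPM with MC903 and paeonol. MC903 libraries lay below all controls, and the paeonol libraries spread from below the MC903 libraries to within the control range. The log2 change was -0.36 ± 0.11 with MC903 (adjusted p = 0.0223), 0.01 ± 0.11 on adding paeonol (adjusted p = 0.973, 95% interval from -0.24 to 0.25) and -0.35 ± 0.11 in MC903 with paeonol versus control (adjusted p = 0.0359). The MC903 call ended without control library 1 or 2 or MC903 library 1 (adjusted p = 0.0761, 0.0685 and 0.0789). The call against control with paeonol ended without control library 1 or 2, MC903 library 2 or paeonol library 2 or 3 (0.11, 0.106, 0.0531, 0.0872 and 0.0914) and in a fit of the 2 groups alone (0.0651).

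Markers of fibroblasts and of monocytes and macrophages, cells that express S100a4, mostly moved in different directions. Of 10 fibroblast markers tested, 7 fell and 2 rose with MC903, 4 rose and 2 fell on adding paeonol, and their summed level was 8825 to 9617 CPM in control, 2995 to 4144 CPM with MC903 and 4337 to 5479 CPM with MC903 and paeonol. The collagen genes Col1a2 (log2 change -1.92 ± 0.13) and Col1a1 (-1.87 ± 0.14) led the list. The monocyte and macrophage markers were at 1077 to 1176 CPM in control, 1913 to 2131 CPM with MC903 and 739 to 1005 CPM with MC903 and paeonol in sum. Of these 14, 12 rose and 2 fell with MC903, and 11 fell and 1 rose on adding paeonol. T cell markers, also of leukocytes, summed to 40.9 to 50.3 CPM in control and 35.4 to 51.4 CPM with MC903. With MC903 and paeonol they summed to 23.0 to 37.3 CPM. Over all genes, 46.8% were called with MC903 and 29.7% on adding paeonol. In bulk tissue, fewer cells of a type and less RNA per cell cannot be told apart, and the part of these cells in the S100a4 values was not tested. S100a4 and S100a3 also overlap the transcript model Gm42674 on the same strand, so reads there could have been divided between genes.

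**Figure D2:**
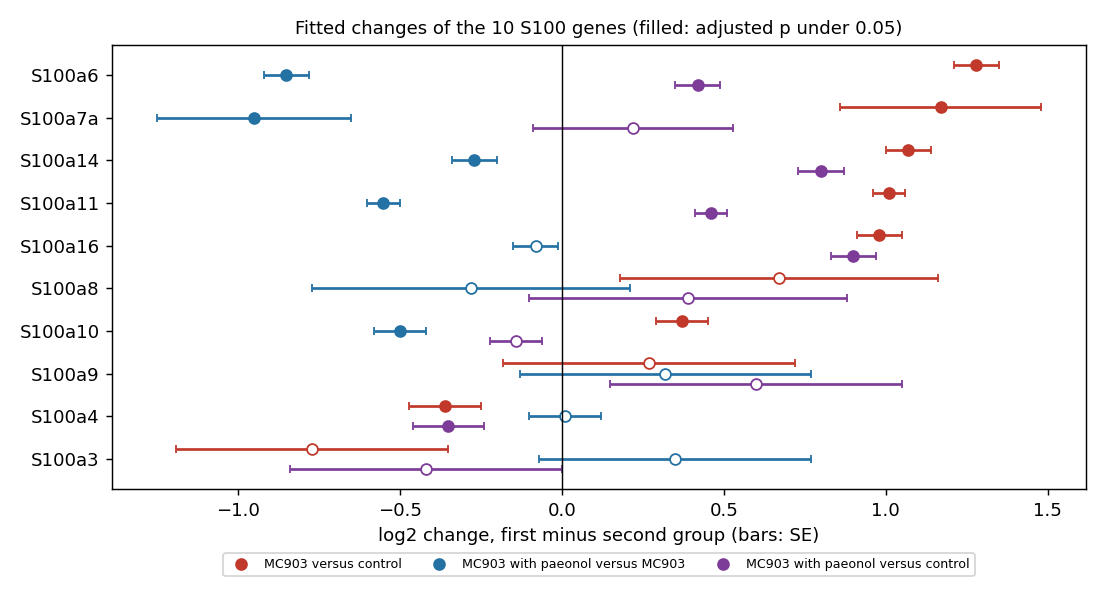
Fitted log2 changes (horizontal axis) of the 10 S100 genes (vertical axis, by their change with MC903) in the 3 comparisons, with SE as bars and filled points where the adjusted p was under 0.05. S100a6 has a change of 1.28 with MC903, S100a16 one of 0.98 that stays at 0.90 with paeonol, and the bars of S100a3, S100a8 and S100a9 are several times wider than those of S100a11.

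The calprotectin genes S100a8 and S100a9, both antimicrobial and abundant in neutrophils and stressed keratinocytes, were not called in any comparison. S100a8 was at 39.2, 165 and 80.6 CPM in control, 130, 193 and 131 CPM with MC903 and 121, 117 and 137 CPM with MC903 and paeonol. S100a9 was at 42.4, 160 and 87.1 CPM in control, 109, 144 and 97.1 CPM with MC903 and 162, 129 and 148 CPM with MC903 and paeonol. In both genes control library 2 was high and control library 1 low, and the control range reached into both other groups.

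The log2 change of S100a8 was 0.67 ± 0.49 with MC903 (adjusted p = 0.317, 95% interval from -0.51 to 1.85) and -0.28 ± 0.49 on adding paeonol (adjusted p = 0.735, interval from -1.45 to 0.90). It was 0.39 ± 0.49 in MC903 with paeonol versus control (adjusted p = 0.611). For S100a9 the changes were 0.27 ± 0.45 (adjusted p = 0.662, interval from -0.81 to 1.35), 0.32 ± 0.45 (adjusted p = 0.66, interval from -0.76 to 1.40) and 0.60 ± 0.45 (adjusted p = 0.385). With MC903 the intervals of both genes run from a fall to more than the rise of S100a6, so at this spread neither a change nor its absence was shown. Without control library 2, S100a8 was called higher with MC903 (1.34, adjusted p = 0.0217), while in MC903 with paeonol versus control it was at 1.06 without a call (adjusted p = 0.0713). Without the same library S100a9 was at 0.851 with MC903 (adjusted p = 0.0859). In MC903 with paeonol versus control it was then called higher (1.17, adjusted p = 0.0492). Leaving out the low control library 1 instead moved both genes the other way. With MC903, S100a8 was then at 0.298 without a call and S100a9 at -0.0832 (adjusted p = 0.851). Both calls were thus made only when the highest control was left out.

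Neutrophil markers, as a list, were followed beside this pair. Of 11 tested, 7 rose with MC903 and 0 fell, led by Csf3r (1.76 ± 0.19) and Mmp8 (3.95 ± 0.66), and 7 fell and 1 rose on adding paeonol. Their summed level was 19.8 to 27.0 CPM in control, 74.2 to 137 CPM with MC903 and 27.3 to 34.3 CPM with MC903 and paeonol. Few genes made up most of it. Mmp9 was at 92.4, 71.6 and 32.7 CPM with MC903, and Cxcr2, the gene that rose, at 17.1, 21.2 and 16.7 CPM with paeonol. The low granule genes Camp, Mpo and Ltf had negative log2 changes with MC903 but no call (adjusted p = 0.199, 0.122 and 0.732). The granule and surface markers Ly6g, Ngp and Elane were at or near 0 in every library, at most 0.345 CPM (Ngp in MC903 library 3). Control library 2, the highest control for S100a8 and S100a9, held the highest control value for 9 of the 13 neutrophil markers detected in controls and for 7 of 10 stress keratinocyte genes. It was also highest for 11 of 14 monocyte and macrophage, 8 of 10 T cell, 7 of 8 adipocyte, 6 of 7 cartilage and 6 of 8 Schwann cell markers, and for 0 of the basal keratinocyte, differentiated keratinocyte and muscle markers, so these counts are not particular to neutrophils or stressed keratinocytes. The part of these cells in the S100a8 and S100a9 values was not tested.

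The stress keratinocyte list (keratins 6, 16 and 17, small proline-rich proteins, defensins and Lcn2) was higher with MC903 in 10 of 10 genes. Its summed level was 609 to 1334 CPM in control, 21112 to 22867 CPM with MC903 and 5316 to 9819 CPM with MC903 and paeonol. On adding paeonol 7 of the 10 fell and 0 rose. Defb14, a beta-defensin, changed by 4.24 ± 0.28 and then -1.91 ± 0.25, and Sprr2h, an envelope precursor, by 4.76 ± 0.35 and then -0.27 ± 0.30 (adjusted p = 0.568). S100a8 and S100a9 had no called change in these ears, but with MC903 neither a change nor its absence was shown for them. Whether the pair differs from this list was not tested.

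**Figure D3:**
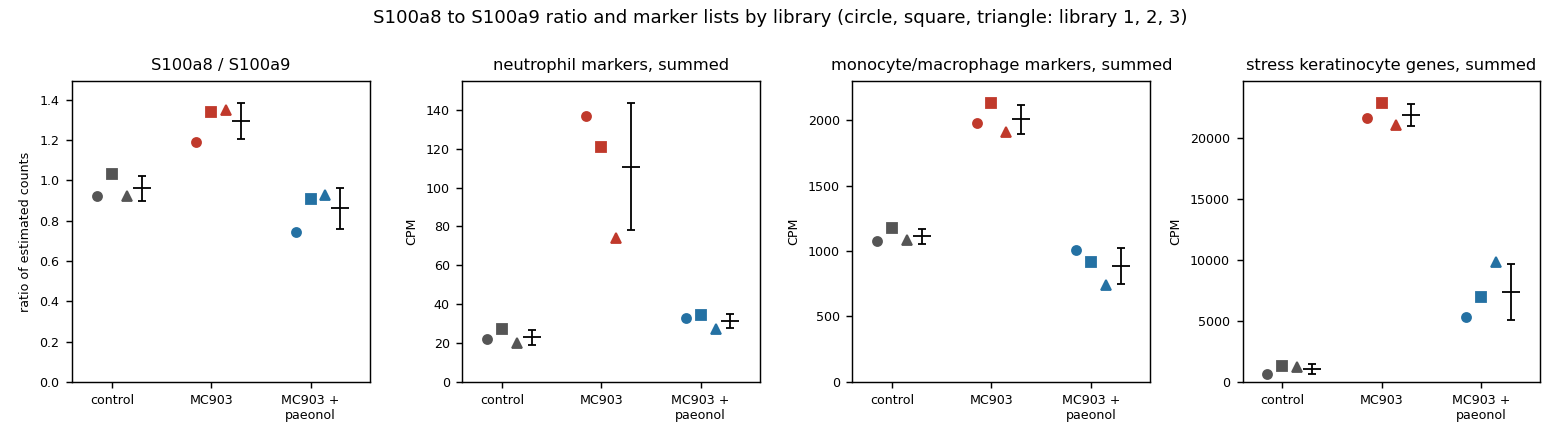
Ratio of S100a8 to S100a9 and summed CPM of 3 marker lists (vertical axes, starting at 0) in each library, with the mean and SD of each group beside the points. The ratio is 1.19 to 1.35 in the MC903 libraries and 1.03 or lower in the others, and all 3 lists are highest with MC903.

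S100a3, a cuticle protein of the hair shaft, was low and spread widely. It was at 10.8, 22.8 and 7.72 CPM in control, 8.03, 8.54 and 7.59 CPM with MC903 and 5.88, 12.7 and 12.2 CPM with MC903 and paeonol. The groups overlapped, and the log2 changes were -0.77 ± 0.42 (adjusted p = 0.172), 0.35 ± 0.42 (adjusted p = 0.6) and -0.42 ± 0.42 (adjusted p = 0.504). Without control library 2 the change of S100a3 with MC903 was -0.203 (adjusted p = 0.632), and that in MC903 with paeonol versus control was 0.147 (adjusted p = 0.779). Control library 2 also held the highest control value for 9 of 11 hair shaft genes, as it did for most markers of several other cell types given above. Krt35, a hair keratin named after its values were seen, was at 6.59 CPM there against 0.352 and 0.321 CPM in the other controls.

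Of the 11 hair shaft genes tested, 2 rose and 2 fell with MC903, beside 46.8% of all genes called, with Krt32 at -3.17 ± 0.40 and Tchh at 5.97 ± 0.55. The part of hair in the S100a3 values was not tested. S100a3 and S100a2 overlap on the same strand. The enzyme Padi3, known to modify S100a3 in the hair cuticle and named after its values were seen, was at 0.558 to 1.02 CPM in control, 16.7 to 20 CPM with MC903 and 1.48 to 5.68 CPM with MC903 and paeonol. Its log2 changes were 4.53 with MC903 (adjusted p = 4.19e-05) and -2.34 on adding paeonol (adjusted p = 0.00235).

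Levels of different genes were compared as CPM per kb of exon. In control ears S100a11 was highest (553 CPM per kb), followed by S100a4 (460), S100a6 (353), S100a14 (198), S100a10 (192), S100a9 (185), S100a8 (137), S100a16 (113), S100a3 (2.43) and S100a7a (0.775). The neighbours from S100a14 to S100a16 in this order overlapped in their ranges, and the others did not. With MC903 the order began with S100a11 (1110), S100a6 (856), S100a14 (416) and S100a4 (360), which did not overlap with their neighbours. S100a10 (247), S100a9 (224), S100a16 (223) and S100a8 (218) overlapped in turn, as did S100a7a (1.75) and S100a3 (1.42).

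With MC903 and paeonol S100a11 (759) and S100a6 (473) again led, before S100a4 (362) and S100a14 (344), whose ranges overlapped. S100a9 (280) came next, then S100a16 (211), S100a8 (180) and S100a10 (174), which overlapped in turn, and S100a3 (1.81) and S100a7a (0.905) were last. When the longest transcript was used as the length, S100a6 stood above S100a11 in every group, at 616, 1494 and 826 against 553, 1110 and 759 CPM per kb in control, MC903 and paeonol libraries. S100a10 moved up as well, to 339, 437 and 308 CPM per kb, from rank 5 to 3 with MC903 and from rank 8 to 5 with paeonol. S100a3 was then at 4.38, 2.56 and 3.27 CPM per kb.

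Along the chromosome, neighbours did not all move alike. S100a14 and S100a16 rose side by side. S100a3 beyond them was not called, S100a2, which lies within it at a level near the floor, was called higher, and S100a4 was called lower. S100a6 and S100a7a further on rose. S100a1, which lies at the other end of the cluster and is known from muscle, fell from 41.3, 52.5 and 55.8 CPM in control to 28.0, 29.4 and 28.8 CPM with MC903 (log2 change -0.79 ± 0.10, adjusted p = 6.14e-05). It was at 30.8, 30.3 and 30.8 CPM with MC903 and paeonol, not called against MC903 (adjusted p = 0.556) and called lower than control (-0.70 ± 0.10, adjusted p = 0.000434). S100a13, which lies between S100a1 and S100a14, was at 30.4 to 38.5 CPM with MC903 and 31.3 to 35.3 CPM in control, and was not called in any comparison.

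**Figure D4:**
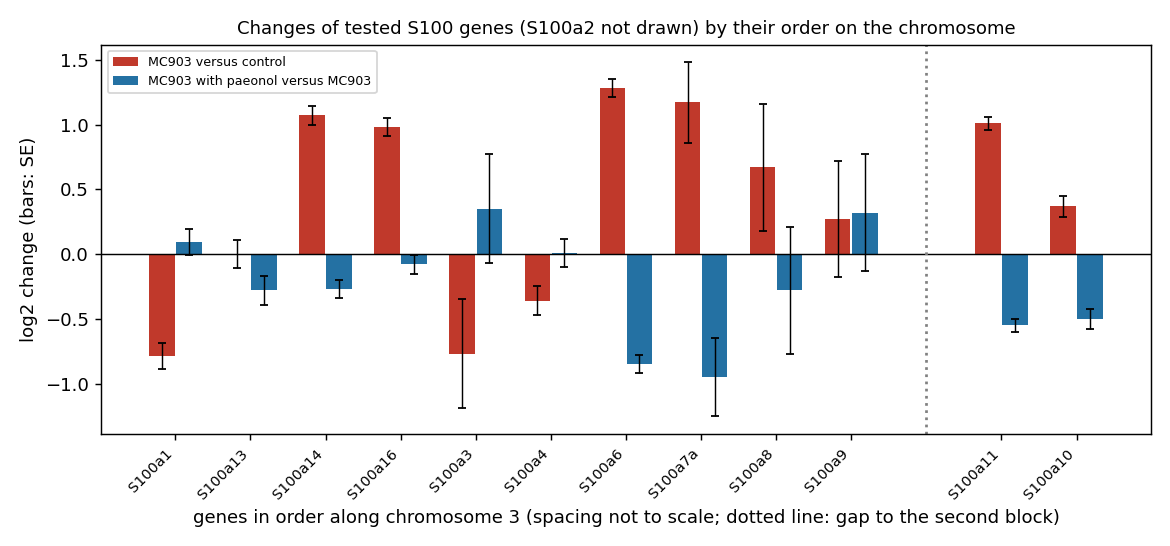
Fitted log2 changes (vertical axis, SE as bars) of 12 S100 genes in their order along chromosome 3 (horizontal axis, spacing not to scale), for MC903 versus control and for MC903 with paeonol versus MC903. The low-count genes S100a2 and S100a7l2 are not drawn. Changes of the genes drawn run with MC903 from -0.79 in S100a1 to 1.28 in S100a6, with the 2 genes of the second block, S100a11 and S100a10, at 1.01 and 0.37.

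Other S100 genes lie elsewhere. S100b, a gene of Schwann cells, adipocytes and cartilage, was at 54.7, 67.6 and 62.0 CPM in control, 20.3, 16.3 and 19.5 CPM with MC903 and 34, 27.7 and 29.6 CPM with MC903 and paeonol. It fell by 1.72 on the log2 scale with MC903 (SE 0.11, adjusted p = 8.45e-07), rose by 0.70 ± 0.11 on adding paeonol (adjusted p = 0.000751) and stayed below control (-1.01 ± 0.11, adjusted p = 0.000105). S100g (calbindin D9k), a vitamin D target of the gut, was at 0 in all controls, 9.51, 12.6 and 15.2 CPM with MC903 and 1.10, 4.67 and 9.30 CPM with MC903 and paeonol. Against a floor of 12 counts per library, the group mean was at least 63-fold above control with MC903, or 56.0-fold without MC903 library 3. With MC903 and paeonol the mean was at least 25.4-fold above control, or 14.6-fold without paeonol library 3. These bounds are for means, not for single libraries. All paeonol libraries lay below the MC903 libraries. The log2 change between these groups, -1.31 ± 0.73, was not called (adjusted p = 0.26, 95% interval from -3.17 to 0.55).

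S100a7l2, annotated as 9130204L05Rik, was at 0.406 to 0.448 CPM in control and 0 in all MC903 libraries (at least 1.9-fold lower, adjusted p = 0.00377). S100a5 and S100z did not pass the filter on low counts. Of the 5 other S100 genes tested, 1 rose and 3 fell with MC903, 1 rose on adding paeonol, and 1 was higher and 2 were lower in MC903 with paeonol versus control. The shares of all genes called in these comparisons were 46.8%, 29.7% and 30.9%.

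Markers of the cells known for S100b and S100a1 fell as well. With MC903, 7 of 8 Schwann cell markers, 8 of 8 adipocyte markers, 7 of 7 cartilage markers and 10 of 10 skeletal muscle markers fell, and none rose. Among the leading genes were Mbp (-1.48 ± 0.07) of myelin, Plin1 (-3.15 ± 0.19) and Adipoq (-2.36 ± 0.15) of fat, Col11a2 (-2.21 ± 0.13) and Sox9 (-1.35 ± 0.09) of cartilage, and Mb (-1.39 ± 0.12) and Ttn (-1.27 ± 0.13) of muscle. On adding paeonol 3 Schwann, 4 adipocyte, 6 cartilage and 2 muscle markers rose, while 1 Schwann and 1 adipocyte marker fell. The part of these tissues in the S100b and S100a1 values was not tested.

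Of 9 S100 receptor genes, 4 fell with MC903 and 0 rose, with Alcam at -0.67 ± 0.08 and the fatty acid receptor Cd36 at -0.98 ± 0.17. Calls in that comparison were made for 46.8% of all genes, so 4 of 9 is near the background. On adding paeonol 2 rose and 4 fell, beside 29.7% of all genes called. In MC903 with paeonol versus control 4 were lower and 0 higher, beside 30.9% of all genes called. The calprotectin receptors were named after their values were seen. Ager fell from 6.02, 7.28 and 7.93 CPM to 5.44, 4.68 and 3.72 CPM with MC903 (log2 change -0.62, adjusted p = 0.0165). Tlr4 was not called with MC903 (0.32, adjusted p = 0.122) and fell by 0.76 on the log2 scale on adding paeonol (adjusted p = 0.00377).

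Of 13 intracellular partners tested, 6 rose and 4 fell with MC903, 4 rose and 5 fell on adding paeonol, and 4 were higher and 3 lower than control with paeonol. Over all genes, 46.8%, 29.7% and 30.9% were called in these comparisons. Anxa1, the annexin bound by S100a11, rose by 0.75 ± 0.06 on the log2 scale and then changed by -0.20 ± 0.06, staying above control (0.56 ± 0.06, adjusted p = 5.54e-05). Anxa5, another annexin, moved the other way, with -0.59 ± 0.05 and then 0.27 ± 0.05.

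Other cell types of the ear were followed with the same fit. Of 14 monocyte and macrophage markers, 12 rose and 2 fell with MC903, with the complement gene C1qa at 1.51 ± 0.14, and 11 fell and 1 rose on adding paeonol. Of 10 T cell markers, 4 rose and 2 fell with MC903, with Icos at 1.33 ± 0.24 and Cd3g at -1.53 ± 0.21. Of 7 basal keratinocyte markers, 2 rose and 3 fell, with Krt14 at 1.3 ± 0.07 and Krt15 at -2.59 ± 0.13. Of 10 differentiated keratinocyte markers, 3 rose and 3 fell with MC903, with Krt1 at 2.03 ± 0.22 and Klk7 at 1.64 ± 0.21, and 7 rose and 0 fell on adding paeonol. Beside these and the earlier marker lists, 46.8% of all genes were called with MC903 and 29.7% on adding paeonol. Whether any list differed from that background was not tested.

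Among the members themselves, log2 CPM correlated across the 9 libraries with a Pearson r of 0.98 between S100a6 and S100a11, 0.97 between S100a14 and S100a16 and 0.91 between S100a8 and S100a9, but 0.29 between S100a10 and S100a16. The 9 libraries fall into 3 groups, so differences between group means enter these values. Likeness to other genes was taken as Pearson r over the same libraries, among 12401 genes whose mean log2 CPM was 2 or more. The genes most like S100a6 were Rpl22, Gsr and Ppp2cb (r = 0.995 each), those most like S100a11 were Rpl27, Rpl28-ps1 (a pseudogene that may share reads with its parent gene) and Slc35f6 (0.997 each), and those most like S100a14 were Llph (0.999), Dbf4 (0.998) and Btf3 (0.997). For S100a16 they were Nudcd1, Atp6ap2 and Tmem154 (0.996 each), and for S100a10 Lyn (0.989), Il18rap (0.988) and Hk3 (0.987). For S100a4 they were Mecom (0.984), Fah (0.97) and Tmod2 (0.969), and for S100a7a Phf20l1 (0.972), Cpsf4 (0.97) and Dynlt1b (0.969). An r of at least 0.9 was common for the strongly raised genes, with 1303 genes for S100a6 and 1438 for S100a11, and rare for the calprotectin pair, with 4 genes for S100a8 and 2 for S100a9.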

How the data were processed

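The deposited matrix holds whole numbers per gene for 9 ear libraries, taken as the authors' estimated counts, unscaled between libraries. Per the labels' protocols, the libraries were dUTP-stranded and made from oligo(dT)-selected RNA. The submitters' processing notes name HISAT2 2.0.4, StringTie 1.3.4d, cutadapt and the build GRCm38. Which annotation and strand setting they used is not given in the sources. Low values pile up at multiples of 4, so a group at 0 was given a floor of 12 counts per library, covering counting error only. Of 55401 rows, 55141 matched a GENCODE M21 symbol, and 21925 were kept by filterByExpr of edgeR (settings of 10 for the count and 15 for the total).

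All 9 libraries were fitted in edgeR 4.0.16 under R 4.3.3, by robust quasi-likelihood with 1 coefficient per group, and scaled by TMM (factors 0.942 to 1.09). Tests were two-sided, adjusted by Benjamini-Hochberg over all genes tested. Standard errors were derived from each log2 change and its F statistic, and 95% intervals used the gene's degrees of freedom. The common biological coefficient of variation was 0.214. On simulated data for MC903 versus control (21284 genes), 37.3%, 58.2% and 83.3% of genes changed 1.5-fold, 2-fold and 4-fold were called, and 0.0332% of unchanged genes. Only 67, 67 and 66 genes were changed there, while 46.8% of all genes were called in the ears. The adjusted p depends on that share, so these rates need not hold for the real comparison. Members and lists were chosen with earlier results of these data known. Named genes are the members, 7 other S100 genes, the 2 genes of smallest p with MC903 in each list, and the 3 genes most like each called member (predicted genes and S100 genes left out). A few genes named by this rule are not reported here. Alternatives were edgeR with size factors of DESeq2, DESeq2 1.42.0 itself, library totals alone, other filters, 2 groups only, counts divided by 4, the replicate number as a block, and each library left out.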

Additional observations from a re-analysis of the deposited data

How the results depend on the processing

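Of the members' log2 changes recomputed under each alternative, 486 kept their direction and side of the threshold, 15 lost the call, 3 gained one and 6 turned in sign, all 6 of changes that were not called. With the replicate number as a block, S100a4 in MC903 with paeonol versus MC903 was at -0.0071 (log2), and 10104, 6348 and 6673 genes were called in the 3 comparisons against 10259, 6502 and 6765 without it. The counts of members called with the block were 7, 5 and 5. Replicate numbers were not taken to pair libraries, since the labels do not say that they do. Deviations of log2 CPM from the group means were also correlated between libraries of different groups. The values ran from -0.0113 to 0.04 for same-numbered libraries and from -0.0322 to 0.0255 for differently numbered ones.

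With each library left out, the log2 change of S100a9 with MC903 ran from -0.0832 to 0.851, that of S100a4 on adding paeonol from -0.115 to 0.13, and those of S100a3 and S100a7a in MC903 with paeonol versus control from -0.709 to 0.147 and from -0.00361 to 0.39. The fewest genes called on adding paeonol, with any 1 library left out, were 5065. Scaling by library totals alone brought the median log2 change over all genes to -0.205 with MC903 and -0.197 in MC903 with paeonol versus control. It left 3402 of 10626 and 2155 of 7509 called genes higher (32.0% and 28.7%, against 49.2% and 52.9%). With 3 libraries a group, standard errors of the members ran from 0.05 for S100a11 to 0.49 for S100a8.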

Other observations

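The ratio of S100a8 to S100a9 within a library, chosen after the values had been seen, was 0.925, 1.03 and 0.925 in control, 1.19, 1.34 and 1.35 with MC903 and 0.746, 0.907 and 0.929 with MC903 and paeonol. The MC903 libraries did not overlap with the others, although both genes overlapped between groups in their own levels. A two-sided exact permutation test of the log2 ratio gave p = 0.1 for MC903 versus control and for paeonol versus MC903, the smallest value that 3 against 3 libraries allow, and p = 0.3 for paeonol versus control (adjusted over the 3 comparisons 0.15, 0.15 and 0.3).

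S100a2, whose transcript lies within S100a3 on the same strand and which was added after its values had been seen, was at 0.192, 0.213 and 0 CPM in control, 1.14, 0.832 and 1.03 CPM with MC903 and 0.212, 0.369 and 1.02 CPM with MC903 and paeonol. It was called higher with MC903 (edgeR adjusted p = 0.0189), with controls at 13 counts or fewer.

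Outside the rule for named genes, Cxcl1 was the gene most like S100a8 over the 9 libraries (Pearson r = 0.935), and Saysd1 the gene most like S100a9 (r = 0.938). For S100a3 the highest value was 0.85, for Cdkl2.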
